A study of Arabidopsis thaliana with 21 samples.

Results

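The SAUR genes (small auxin up RNA) of Arabidopsis thaliana were described in 7 groups of root tip libraries, as 55 loci out of the 27586 loci in the deposited files. The members were taken from a list of locus names by a rule that holds no measured value, though the list was drawn up with earlier results of these data known, and were grouped by neighbouring locus numbers. There were 6 loci in the cluster AT5G180xx, 7 in AT1G294xx-295xx, 4 in AT3G038xx, 7 in AT4G347xx-348xx and 4 in AT4G388xx, and 27 loci stood as single genes. A further 25 loci that the gene table names or describes as SAUR were not members.

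SAUR genes code for short proteins of plants and many were first found as transcripts that accumulate within minutes of auxin treatment. In seedlings, SAUR19 and its near relatives bind and inhibit PP2C.D phosphatases, which otherwise keep plasma membrane proton pumps (AHA proteins) inactive, so that SAUR proteins favour acidification of the cell wall and cell expansion. In roots, auxin slows elongation, and many SAUR genes are not induced by auxin. Auxin is perceived by TIR1/AFB receptors together with Aux/IAA proteins, which are then degraded and release auxin response factors, transcription factors that bind TGTC-containing elements. AXR3-1 is a stabilised form of the Aux/IAA protein IAA17, also called AXR3.

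All plants were 5 days old and every library was made from 50 root tips of 1 to 2 mm. Col-0 plants received IAA (indole-3-acetic acid, the main natural auxin) at 10 nM for 20 min, PEO-IAA (an auxin antagonist of the TIR1/AFB receptors made from IAA by adding a phenyl-oxo-ethyl group on the carbon beside the acid) at 10 µM for 20 min, or mock solution (ethanol) for 20 min. The line HS::AXR3-1, with AXR3-1 under a heat shock promoter in Col-0, and Col-0 itself were both heated to 37 °C for 40 min, with 80 min of recovery afterwards. The line XVE>>AXR3-1, named g1090::XVE>>AXR3-1-mCherry and, in the genotype label, XVE:AXR3-1-RFP, expresses tagged AXR3-1 once estradiol is given. It and Col-0 were both given estradiol at 5 µM for 2 h. Each of the 7 groups had 3 libraries that the labels call biological replicates, and each transgene was represented by a single line. The libraries held 17.45 to 23.88 M estimated reads.

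AXR3 transcripts, endogenous and transgenic together, stood at 582, 802 and 1020 TPM (a level scaled by transcript length and library total) in XVE>>AXR3-1, against 135, 132 and 127 TPM in estradiol Col-0, a called rise (log2 change 2.61, SE 0.39, edgeR adjusted p = 9.71e-04). They stood at 143, 262 and 752 TPM in HS::AXR3-1, against 84.1, 115 and 129 TPM in heat-shocked Col-0 (log2 change 1.80, SE 0.38, edgeR adjusted p = 0.199), a difference that DESeq2 called. HS::AXR3-1 replicate 1 stood apart. Its 7 heat shock genes summed to 230 TPM, against 5190 and 12700 TPM in the other libraries of the line and 6910, 6520 and 8670 TPM in heat-shocked Col-0. A set of 8 early auxin genes served as a check of the treatments. By edgeR 5 were higher with IAA than with mock (0.146% of all tested genes) and 2 lower with PEO-IAA than with mock (0.0353%). All 8 were higher with IAA than with PEO-IAA (0.5%), and 4 were lower in XVE>>AXR3-1 (1.34%). In HS::AXR3-1 edgeR called 0 of the 8 and DESeq2 0, with 4 lower at an unadjusted p under 0.05 (1.62% of all tested genes). Every marker used for root cap, stem cell niche, dividing cells, root hairs and endodermis was above 0 in each group, and the green tissue markers summed to 8.14 to 29.3 TPM. In such bulk tissue, fewer cells of a type and less RNA per cell cannot be told apart.

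The AT5G180xx cluster held the most alike members, with 88.6% to 95.9% identity between pairs of coding sequences (median 92.7% over 15 pairs). To show how near these neighbours are, 60 bases of coding sequence are given for the 4 of them whose coding sequence has 273 bases (TAIR10.1, RefSeq, coding bases 109 to 168 counted from the start codon), the stretch where the others differ most from SAUR24. SAUR24 (AT5G18080) lies at chr5:5983683-5984308 on the plus strand, SAUR19 (AT5G18010) at chr5:5962773-5963405 on the minus strand, SAUR22 (AT5G18050) at chr5:5974341-5975087 on the minus strand and SAUR23 (AT5G18060) at chr5:5975780-5976589 on the plus strand. Each is shown in its own 5′ to 3′ direction, and capitals mark bases that differ from SAUR24.
SAUR24: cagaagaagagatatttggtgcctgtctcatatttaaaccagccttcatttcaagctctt
SAUR19: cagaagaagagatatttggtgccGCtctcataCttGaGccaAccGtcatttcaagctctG
SAUR22: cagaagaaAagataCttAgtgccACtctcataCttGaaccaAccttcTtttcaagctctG
SAUR23: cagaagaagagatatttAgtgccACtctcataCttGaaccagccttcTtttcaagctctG
Over the whole coding sequence SAUR19 differed from SAUR24 at 13 bases, SAUR22 at 28 and SAUR23 at 23. Of the 4, SAUR24 alone had any estimated counts in these libraries.

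Likeness was lower in the other clusters. Median coding identity was 84.7% in AT1G294xx-295xx, 84.2% in AT3G038xx, 66.4% in AT4G347xx-348xx and 66.0% in AT4G388xx. Of the 55 members, 20 shared at least 1 word of 31 bases with another member, so their reads could be divided between members by the authors' estimation. The other 35 shared none with a member. Words shared with loci outside the members were not searched, so reads divided with such loci are not covered. SAUR63 shared the largest part of its transcript (39.2% of its words), followed by SAUR19 (38.6%), SAUR68 (30.1%) and SAUR24 (25.8%). In the deposited estimates, 707 of 714 member values above 0 were whole numbers within 0.001 (99.0%, against 96.3% over all loci), and the values that were not whole belonged to SAUR63, SAUR68 and SAUR31. SAUR63 and SAUR64 overlap AT1G29435 on the other strand, SAUR31 overlaps AT4G00883, SAUR13 overlaps AT4G38820 and SAUR8 overlaps AT2G16575, also on the other strand, and SAUR6 overlaps AT2G21200 on the same strand. The strand setting is not given in the sources used here, so reads of these pairs cannot be told apart. Of the 55 members, 52 had 1 exon, and their proteins were 88 to 183 residues long (median 117).

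Upstream sequence is shown for the 3 members called higher and the 2 called lower with IAA than with PEO-IAA, since these changed in opposite directions. Each is the 250 bases before the annotated transcript start (TAIR10.1, RefSeq, plus strand), and capitals mark TGTC cores on either strand (TGTC or GACA) and TGTCTC, the canonical auxin response element, whole. SAUR66 (AT1G29500) is chr1:10320761-10321010, SAUR68 (AT1G29510) chr1:10322173-10322422, SAUR24 chr5:5983433-5983682, SAUR4 (AT4G34800) chr4:16596390-16596639 and SAUR5 (AT4G34810) chr4:16598708-16598957.
SAUR66: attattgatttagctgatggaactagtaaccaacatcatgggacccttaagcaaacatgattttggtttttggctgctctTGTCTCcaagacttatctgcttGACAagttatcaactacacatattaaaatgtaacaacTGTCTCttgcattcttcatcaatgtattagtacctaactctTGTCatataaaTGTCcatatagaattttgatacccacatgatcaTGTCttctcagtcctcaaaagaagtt
SAUR68: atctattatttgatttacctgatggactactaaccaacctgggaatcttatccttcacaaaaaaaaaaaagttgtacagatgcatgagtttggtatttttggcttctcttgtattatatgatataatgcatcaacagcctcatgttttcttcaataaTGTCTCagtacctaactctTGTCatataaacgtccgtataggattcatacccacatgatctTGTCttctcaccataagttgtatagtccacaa
SAUR24: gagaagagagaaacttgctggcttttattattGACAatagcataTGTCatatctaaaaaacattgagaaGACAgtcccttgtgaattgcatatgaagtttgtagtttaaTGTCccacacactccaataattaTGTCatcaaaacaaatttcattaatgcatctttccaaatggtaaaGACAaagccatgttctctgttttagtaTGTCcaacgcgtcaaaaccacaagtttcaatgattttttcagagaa
SAUR4: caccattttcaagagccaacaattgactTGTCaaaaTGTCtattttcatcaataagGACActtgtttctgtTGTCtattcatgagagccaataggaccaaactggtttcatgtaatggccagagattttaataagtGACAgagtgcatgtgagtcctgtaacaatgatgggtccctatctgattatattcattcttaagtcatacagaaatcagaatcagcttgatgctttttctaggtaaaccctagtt
SAUR5: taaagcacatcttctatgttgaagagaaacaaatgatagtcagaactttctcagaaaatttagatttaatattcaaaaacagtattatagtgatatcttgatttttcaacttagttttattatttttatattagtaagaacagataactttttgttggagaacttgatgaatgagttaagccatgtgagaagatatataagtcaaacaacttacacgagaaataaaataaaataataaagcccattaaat
In these 250 bases SAUR66 had 2 matches of TGTCTC and SAUR68 had 1, while SAUR24, SAUR4 and SAUR5 had 0. Counting any TGTC core with the next 2 bases (TGTCNN, which includes TGTCTC), there were 6 matches for SAUR66, 3 for SAUR68, 7 for SAUR24, 5 for SAUR4 and 0 for SAUR5. The motif search over all members used 250 bases before and 50 after the start on both strands. TGTCTC was in the window of 7 of 55 members (12.7%, against 14.5% of 27388 windows of all loci), TGTCGG, a form bound with high affinity, in 2 (3.64%, against 5.16%), TGTCNN in 47 (85.5%, against 81.3%) and CACGTG, the G-box, in 1 (1.82%, against 7.70%). A match describes the letters in this window and no more.

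Of the 55 members, 36 (65.5%) reached a mean of at least 1 TPM in at least 1 group, against 19160 of all 27586 loci (69.5%). There were 7 members with 0 counts in every library (SAUR2, SAUR12, SAUR13, SAUR19, SAUR22, SAUR23 and SAUR42), where 3 counts would have been 0.126 to 0.172 CPM (counts scaled to the library total) in a library, a limit that covers counting error only. Expressed members made up 1 of 6 in AT5G180xx, 4 of 7 in AT1G294xx-295xx, 4 of 4 in AT3G038xx, 5 of 7 in AT4G347xx-348xx, 2 of 4 in AT4G388xx and 20 of 27 single genes. Over all libraries, 15 members averaged at least 10 TPM, of which 11 were single genes and 4 belonged to AT4G347xx-348xx. The highest were SAUR5 (77.1 TPM), SAUR78 (76.3 TPM) and SAUR4 (73.3 TPM), followed by SAUR32 (44.2 TPM), SAUR72 (30.2 TPM) and SAUR30 (26.7 TPM). The heat map of group means gives all 55.

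**Figure D1:**
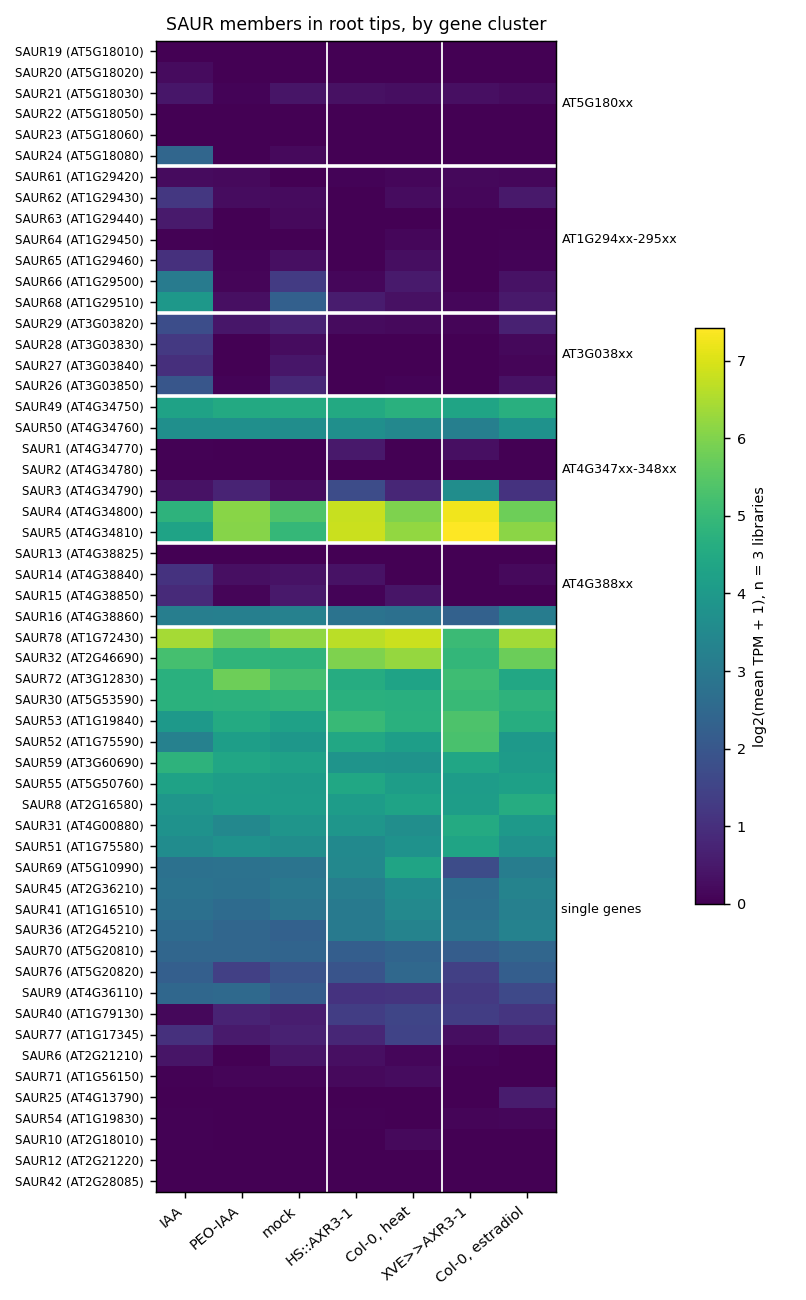
Mean TPM of all 55 SAUR members (rows, by gene cluster; single genes in order of their mean) in the 7 groups (columns), coloured by log2(mean TPM + 1) over 3 libraries. The clusters AT5G180xx, AT1G294xx-295xx and AT3G038xx are brightest in the IAA column, SAUR4 and SAUR5 are brightest in XVE>>AXR3-1, and 7 rows hold 0 counts throughout.

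The AT1G294xx-295xx cluster was highest with IAA. Its summed level was 28.4, 17.9 and 28.5 TPM with IAA, 0.843, 0.388 and 0.866 TPM with PEO-IAA and 4.67, 8.52 and 4.36 TPM with mock. Every IAA library stood above every mock library and every mock library above every PEO-IAA library. In the transgenic experiments the sums were 0.295, 1.53 and 0.128 TPM in HS::AXR3-1 against 0.165, 1.85 and 1.88 TPM in heat-shocked Col-0, and 0.253, 0.445 and 0.157 TPM in XVE>>AXR3-1 against 1.14, 2.00 and 0.824 TPM in estradiol Col-0. The XVE>>AXR3-1 libraries all lay below their Col-0 libraries, and the heat-shocked groups overlapped. The Col-0 controls of the 3 experiments were unlike each other, with means of 5.85 TPM for mock, 1.3 TPM after heat shock and 1.32 TPM after estradiol. SAUR68 and SAUR66 made up most of this sum, averaging 14.5 and 7.42 TPM with IAA. SAUR62 and SAUR65 averaged 1.28 and 1.06 TPM with IAA, and SAUR61, SAUR63 and SAUR64 stayed under 1 TPM in every group. SAUR62 was at 3.06, 0.416 and 0.373 TPM with IAA, so replicate 1 alone brought its mean over 1 TPM. SAUR63, which promotes elongation of hypocotyls and petals, had 8 counts with IAA, 0 with PEO-IAA and 2 with mock over the 3 libraries of each. Of the 8 counts, 7 were in IAA replicate 3.

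The AT3G038xx cluster (SAUR26 to SAUR29, a subfamily known for variation between accessions in growth at warm temperature) had the same order in its treatments at a lower level. Its sum was 8.05, 6.57 and 8.52 TPM with IAA, 0, 0.359 and 0.898 TPM with PEO-IAA and 2.06, 2.79 and 1.07 TPM with mock. IAA libraries stood above both other groups without overlap, and PEO-IAA libraries lay below mock libraries. All 4 members were highest with IAA, at means of 2.94 TPM for SAUR26, 2.40 TPM for SAUR29, 1.36 TPM for SAUR28 and 1.02 TPM for SAUR27. In both AXR3-1 lines and their controls no member averaged over 0.601 TPM.

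The AT5G180xx cluster was nearly silent except with IAA. SAUR24 had 29, 22 and 29 counts with IAA, 0 in each PEO-IAA library, 0, 1 and 1 with mock and 0 in each of the other 12 libraries. SAUR21 was present at low level in every group, with means of 0.0495 to 0.372 TPM, and SAUR20 had 3 counts in all, in IAA libraries. SAUR19, the member best studied for proton pump activation in hypocotyls, had 0 counts in all 21 libraries, as had SAUR22 and SAUR23.

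The AT4G347xx-348xx cluster ran the other way. Its sum was lowest with IAA (71.5, 82.6 and 75.6 TPM), higher with PEO-IAA (171, 143 and 190 TPM) and between them with mock (93.0, 109 and 108 TPM), with no overlap between the 3 groups in TPM. In CPM, PEO-IAA libraries (57.0, 41.6 and 61.7 CPM) overlapped mock libraries (50.5, 36.9 and 40.9 CPM), while IAA libraries lay below both (29.5, 29.6 and 32.2 CPM). It was 189, 327 and 261 TPM in HS::AXR3-1 against 200, 159 and 156 TPM in heat-shocked Col-0, and 397, 386 and 302 TPM in XVE>>AXR3-1 against 178, 156 and 149 TPM in estradiol Col-0. The XVE>>AXR3-1 libraries lay above their controls, and HS::AXR3-1 replicate 1 lay within its controls in TPM but above them in CPM (73.6, 94.3 and 74.8 CPM in HS::AXR3-1, against 64.5, 60.0 and 47.9 CPM in heat-shocked Col-0). SAUR4 and SAUR5 carried this pattern. Their neighbours SAUR49 and SAUR50 were not called by edgeR in any comparison and had group means of 18.4 to 25.2 TPM and 8.20 to 12.7 TPM, SAUR1 had 17 counts in all libraries and SAUR2 had 0. In XVE>>AXR3-1, SAUR50 lay below its controls without overlap (5.95 to 9.86 TPM, against 12.5 to 12.9 TPM in estradiol Col-0). SAUR49 also lay below them in TPM, but overlapped them in CPM.

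The AT4G388xx cluster was mostly SAUR16, a gene known for light-induced growth of cotyledons, with group means of 3.89 TPM in XVE>>AXR3-1 to 8.64 TPM with mock. SAUR14 and SAUR15 (SAUR-AC1, among the first Arabidopsis SAUR genes isolated) reached their highest means with IAA, 1.14 and 0.849 TPM, from 16 and 14 counts. SAUR13 had 0 counts. In XVE>>AXR3-1 the sum was 3.05 to 4.48 TPM, below estradiol Col-0 (5.2 to 10.4 TPM) without overlap in TPM or CPM. SAUR16 was lower there at an unadjusted p under 0.05 by edgeR but was not called. The mock libraries (8.12 to 10.2 TPM in sum) lay within the range of the IAA libraries (6.71 to 13.1 TPM), as the plot of cluster sums shows.

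**Figure D2:**
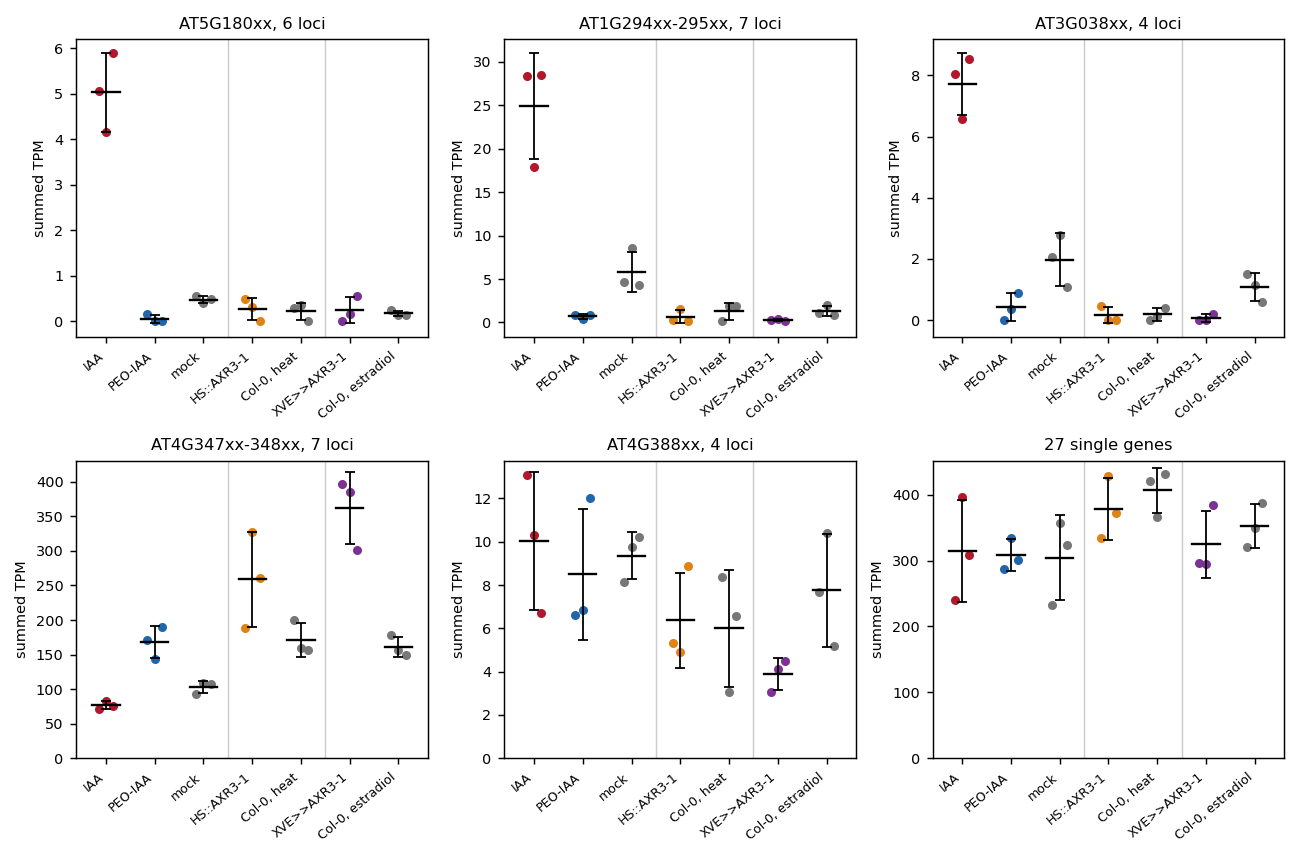
Summed TPM of the loci of each gene cluster and of the 27 single genes (vertical axis, linear) in every library (points), with the group mean and SD (line and bar, n = 3). IAA libraries stand above all others in AT5G180xx, AT1G294xx-295xx and AT3G038xx, and lowest in AT4G347xx-348xx, where XVE>>AXR3-1 has the highest mean (361 TPM).

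Differential expression was tested with edgeR on counts of all 21 libraries in 1 fit, and a gene was called at a Benjamini-Hochberg adjusted p under 0.05 over 19809 genes. Of the 55 members, 31 passed the filter on low counts and 24 did not. SAUR24, SAUR26, SAUR29 and SAUR66 passed only through the IAA libraries, where they are high, so counts that include them are given as a description. Other counts of members called are read beside the share of all tested genes called. Where a group held 3 or fewer counts of a gene, the ratio of counts with its 95% counting interval is given in place of a fitted change. Where the count was 0, the fold is given against 3 counts over the group and written as at least. That value takes the count of the other group as exact, so it is not a 95% limit. Where libraries of the groups are said not to overlap, the share of all genes without overlap was not counted.

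After 20 min of IAA against mock, no member passed the test. By edgeR 0 of 31 members were called higher (0.146% of all tested genes were) and 0 lower (0.0202%), and DESeq2 also called 0 and 0. At an unadjusted p under 0.05 there were 4 higher (SAUR24, SAUR66, SAUR68 and SAUR59, beside 2.29% of all tested genes). SAUR24 and SAUR66 passed the filter only through the IAA libraries, so nothing is read from these 4 beside the 2.29%. At the same threshold 4 were lower (SAUR5, SAUR4, SAUR72 and SAUR52, beside 1.11%). SAUR24 gave 80 counts over the IAA libraries against 2 over the mock libraries, 36.5 times as many (9.77 to 306; adjusted p = 0.138). SAUR5 stood at 18.1, 21.5 and 17.1 TPM with IAA and 25.4, 29.6 and 33.7 TPM with mock, without overlap (log2 change -0.82, SE 0.26, adjusted p = 0.548). SAUR4 stood at 26.3, 29.5 and 25.1 TPM with IAA and 31, 43.0 and 46.5 TPM with mock (log2 change -0.75, SE 0.25, adjusted p = 0.622). SAUR66 was at 8.58, 5.62 and 8.04 TPM with IAA and 1.85, 2.09 and 0.329 TPM with mock, also without overlap (log2 change 2.22, SE 0.80, adjusted p = 0.876). Among members below the filter, SAUR28 had 21 counts over the IAA libraries against 3 over the mock libraries, 6.38 times as many (1.91 to 33.4). A list of 9 touch and handling genes summed to 606 to 894 TPM with IAA and 209 to 392 TPM with mock, with none at 0. By edgeR 0 of these 9 were called, 6 were higher at an unadjusted p under 0.05 and DESeq2 called 2, and their part in the SAUR values was not tested.

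PEO-IAA against mock also called 0 of 31 members by edgeR in either direction (0% of all tested genes were higher and 0.0353% lower). Without adjustment, 2 members had p under 0.05 and were higher (SAUR5 and SAUR4; 0.767% of all tested genes) and 4 were lower (SAUR68, SAUR66, SAUR78 and SAUR26; 0.772%). DESeq2 called 0 higher and 1 lower, SAUR68 (0.116% of all genes it tested). SAUR68 stood at 0, 0 and 0.720 TPM with PEO-IAA and 2.63, 5.18 and 3.84 TPM with mock, without overlap (edgeR log2 change -4.06, SE 1.03, adjusted p = 0.758; DESeq2 -4.14, adjusted p = 0.0293). SAUR66 had 2 counts with PEO-IAA and 43 with mock, a ratio of 22.4 in favour of mock (5.84 to 191; edgeR adjusted p = 1). SAUR5 stood at 67.4, 58.3 and 73.0 TPM with PEO-IAA and 25.4, 29.6 and 33.7 TPM with mock, again without overlap (log2 change 0.94, SE 0.25, adjusted p = 0.966). Below the filter, SAUR27 had 0 counts with PEO-IAA and 7 with mock (at least 2.43-fold lower) and SAUR15 had 1 and 8 (ratio 8.34, 1.12 to 370).

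Set directly against each other, the auxin and its antagonist differed in members of AT1G294xx-295xx and AT4G347xx-348xx, in opposite directions. By edgeR SAUR66, SAUR68 and SAUR24 were higher with IAA than with PEO-IAA (0.5% of all tested genes were). Since SAUR66 and SAUR24 passed the filter only through the IAA libraries, nothing is read from this count of 3 beside that share. By edgeR 2 members were lower (SAUR4 and SAUR5, against 0.131%). Compound and dose change together here, 10 nM of IAA and 10 µM of PEO-IAA. The IAA and PEO-IAA libraries are those already used in the comparisons with mock, so this comparison adds no separate evidence to them. Both comparisons with mock also share their mock libraries. SAUR66 was at 8.58, 5.62 and 8.04 TPM with IAA and 0, 0.240 and 0 TPM with PEO-IAA, 216 against 2 counts, a ratio of 103 (28.1 to 853; adjusted p = 0.00963). SAUR68 was at 15.8, 10.4 and 17.3 TPM with IAA and 0, 0 and 0.720 TPM with PEO-IAA (log2 difference 5.90, SE 1.04, adjusted p = 0.00888). SAUR24 had 80 counts with IAA and 0 with PEO-IAA and was at least 25.3-fold higher. Its call (adjusted p = 0.0342) was lost by DESeq2 (adjusted p = 0.307) and without any of the 6 libraries. The libraries of the groups did not overlap for any of these 3, as the plot of the auxin-high members shows. This is a description, since SAUR66 and SAUR24 passed the filter only through the IAA libraries.

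**Figure D3:**
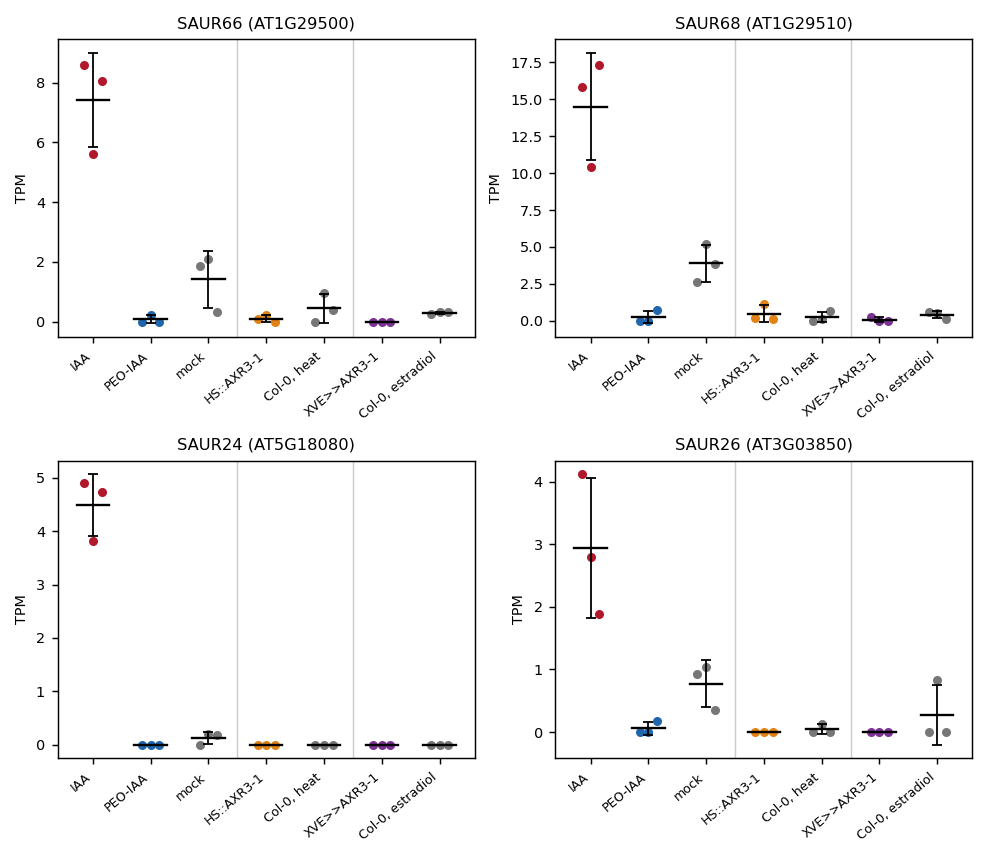
TPM (vertical axis, linear) of SAUR66, SAUR68, SAUR24 and SAUR26 in every library (points) of the 7 groups, with group mean and SD (line and bar, n = 3). The IAA libraries stand highest in all 4 panels (SAUR66 at 5.62 to 8.58 TPM, SAUR24 at 3.82 to 4.91 TPM), and no PEO-IAA, HS::AXR3-1 or XVE>>AXR3-1 library exceeds 1.13 TPM.

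SAUR5 was at 18.1, 21.5 and 17.1 TPM with IAA, against 67.4, 58.3 and 73.0 TPM with PEO-IAA (log2 difference -1.76, SE 0.26, adjusted p = 0.00191). SAUR4 was at 26.3, 29.5 and 25.1 TPM with IAA, against 68.0, 53.3 and 81.0 TPM with PEO-IAA (log2 difference -1.27, SE 0.25, adjusted p = 0.0157). The libraries of the groups did not overlap for either gene. The replicate numbers paired the libraries of this experiment, and with the number as a block 5 members were higher (1.18% of all tested genes) and 3 lower (0.54%). Among the 5, SAUR66, SAUR24 and SAUR26 passed the filter only through the IAA libraries. Nothing is therefore read from the 5 beside the 1.18%. The block added SAUR26 (54 counts with IAA and 1 with PEO-IAA, ratio 51.3, 8.83 to 2060; adjusted p = 0.0407) and SAUR78 (log2 difference 0.72, adjusted p = 0.0397), and among the lower members SAUR72 (-1.07, adjusted p = 0.0487); DESeq2 also called 3 lower (0.301% of all genes it tested). SAUR78, whose protein is reported to bind ethylene receptors, was at 77.0, 98.5 and 78.5 TPM with IAA and 45.3, 53.3 and 56.9 TPM with PEO-IAA. SAUR72 (AT3G12830) was at 19.9, 30.0 and 25.7 TPM with IAA and 78.6, 43.3 and 40.8 TPM with PEO-IAA. The calls of higher members depended on single libraries: 0 remained when PEO-IAA replicate 1 was left out and 1 when replicate 3 of that group was. SAUR4 lost its call without any IAA library and without PEO-IAA replicate 1 or 3 (adjusted p = 0.0609 to 0.127), and SAUR5 kept its call under each alternative tried (highest adjusted p = 0.0199). The touch and handling genes summed to 606 to 894 TPM with IAA and 319 to 448 TPM with PEO-IAA, with 1 of 9 called higher by edgeR and by DESeq2 (TCH3, log2 difference 2.63, SE 0.56, edgeR adjusted p = 0.033) and none at 0, and their part in the SAUR results was not tested.

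Below the low-count filter, several members had more counts with IAA than with PEO-IAA. SAUR28 and SAUR27 each had 21 counts with IAA and 0 with PEO-IAA (at least 6.65-fold higher), SAUR65 had 22 and 1 (ratio 20.9, 3.38 to 863), and SAUR15 had 14 and 1 (ratio 13.3, 2.02 to 562). SAUR63 had 8 counts with IAA (1, 0 and 7 by library) and 0 with PEO-IAA (at least 2.53-fold higher). It shared 39.2% of its words with other members, SAUR68 among them, and 3 of its 4 values above 0 were not whole numbers. SAUR21 had 8 counts with IAA (1, 1 and 6 by library) and 1 with PEO-IAA (ratio 7.6, 1.02 to 337), but also 8 with mock. SAUR40, a single gene that passed the filter and was not called, had 2 counts with IAA and 12 with PEO-IAA (ratio 6.31 in favour of PEO-IAA, 1.41 to 58.1). Of those 12 counts, 10 were in PEO-IAA replicate 2, and the libraries of the groups overlapped. These intervals pool the 3 libraries of a group and cover counting error only, not the spread between libraries.

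In XVE>>AXR3-1 against estradiol Col-0, 3 neighbouring genes of 1 cluster rose and 2 single genes fell. By edgeR SAUR3, SAUR4 and SAUR5 were higher (3 of 31 members, against 1.46% of all tested genes) and SAUR78 and SAUR69 lower (2 of 31, against 1.34%). At an unadjusted p under 0.05, 6 members were higher, adding SAUR52, SAUR53 and SAUR72 (5.74% of all tested genes were). At that threshold 5 members were lower, adding SAUR8, SAUR16 and SAUR66 (4.53%). SAUR66 passed the filter only through the IAA libraries. SAUR4 was at 156, 172 and 131 TPM in XVE>>AXR3-1, against 57.3, 54.8 and 48.0 TPM in estradiol Col-0 (log2 change 1.56, SE 0.24, adjusted p = 0.00143). SAUR5 was at 195, 175 and 139 TPM, against 77.6, 65.8 and 65.2 TPM in estradiol Col-0 (log2 change 1.32, SE 0.25, adjusted p = 0.00556). SAUR3 (AT4G34790) was at 17.9, 7.71 and 8.75 TPM in XVE>>AXR3-1, against 0.835, 1.21 and 1.36 TPM in estradiol Col-0 (log2 change 3.46, SE 0.68, adjusted p = 0.00742). All 3 genes were apart from their controls in every library. SAUR3 to SAUR5 lie next to each other on chromosome 4 in the same direction, between 16594362 and 16599568 (TAIR10.1), and shared no word of 31 bases with each other or with any other member. SAUR3 lost its call without XVE>>AXR3-1 replicate 1, the library with 17.9 TPM (log2 change 2.79, adjusted p = 0.0611), and without estradiol Col-0 replicate 2 (adjusted p = 0.0525), and SAUR5 when its experiment was fitted alone (adjusted p = 0.0666).

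**Figure D4:**
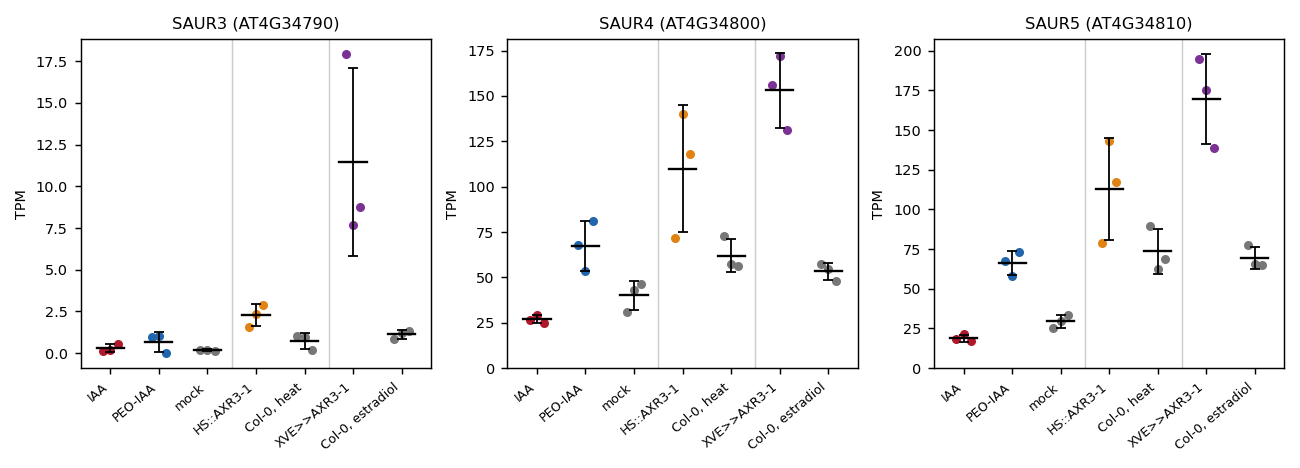
TPM (vertical axis, linear) of the neighbours SAUR3, SAUR4 and SAUR5 in every library (points) of the 7 groups, with group mean and SD (line and bar, n = 3). The means of SAUR4 and SAUR5 are lowest with IAA (27 and 18.9 TPM) and highest in XVE>>AXR3-1 (153 and 169 TPM), and SAUR3 exceeds 3 TPM in XVE>>AXR3-1 libraries only.

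SAUR78 (AT1G72430) was at 26.0, 24.4 and 45.6 TPM in XVE>>AXR3-1, against 80.2, 85.5 and 82.1 TPM in estradiol Col-0 (log2 change -1.33, SE 0.18, adjusted p = 5.26e-04), and kept its call under each alternative tried (adjusted p = 1.09e-09 to 0.0281). SAUR69 (AT5G10990) was at 1.01, 3.44 and 2.49 TPM, against 8.56, 7.29 and 7.82 TPM in estradiol Col-0 (log2 change -1.79, SE 0.42, adjusted p = 0.027). Both stood below every control library. SAUR69 lost its call without XVE>>AXR3-1 replicate 1 or 3 and without any of the 3 estradiol Col-0 libraries (adjusted p = 0.06 to 0.145). It also lost its call when its experiment was fitted alone. The replicate numbers paired these libraries too, and with the block 5 members were higher (4.18% of all tested genes) and 3 lower (3.34%). It added SAUR52 (log2 change 1.37, adjusted p = 0.00528), SAUR53 (0.78, adjusted p = 0.0122) and, among the lower members, SAUR32 (-0.93, adjusted p = 0.0274), known for its part in keeping the apical hook. DESeq2 called the same 5 higher (2.28% of all genes it tested). SAUR52 (AT1G75590) was at 45.4, 42.5 and 26.9 TPM in XVE>>AXR3-1, against 16.4, 15.6 and 12.5 TPM in estradiol Col-0 (without the block adjusted p = 0.052). The root hair markers were lower beside these genes, 3 of 3 called, with summed levels of 22.5 to 70.4 TPM in XVE>>AXR3-1 and 104 to 143 TPM in estradiol Col-0 and none at 0. Of the 3 root cap markers 1 was called higher, NAC015 (17.5 ± 1.57 TPM in XVE>>AXR3-1 and 10.7 ± 1.39 TPM in estradiol Col-0, SD, n = 3 each), and 1 lower, NAC070 (4.20 ± 0.404 TPM in XVE>>AXR3-1 and 8.97 ± 1.00 TPM in estradiol Col-0). The part of either marker list in the SAUR results was not tested.

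The auxin-high members had few counts in this experiment. SAUR66 had 0 counts in XVE>>AXR3-1 and 9 in estradiol Col-0 (at least 2.70-fold lower), SAUR68 had 2 and 11 (ratio 4.95 in favour of Col-0, 1.08 to 46.0) and SAUR29 had 2 and 19 (ratio 8.56, 2.06 to 75.8). Of the 19 SAUR29 counts in estradiol Col-0, 14 were in replicate 1. Both intervals cover counting error only. SAUR25 was seen in estradiol Col-0 alone, with 7 counts in 2 of its libraries.

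**Figure D5:**
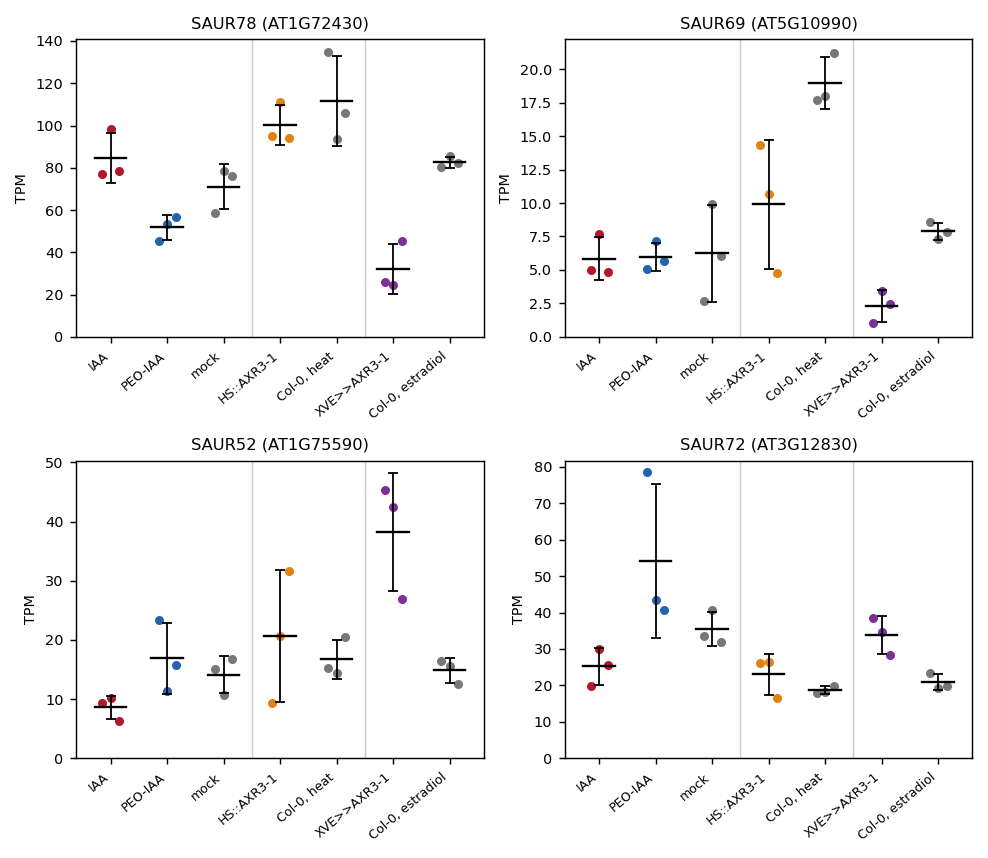
TPM (vertical axis, linear) of the single genes SAUR78, SAUR69, SAUR52 and SAUR72 in every library (points) of the 7 groups, with group mean and SD (line and bar, n = 3). The means of SAUR78 and SAUR69 are lowest in XVE>>AXR3-1 (32.0 and 2.31 TPM), and SAUR69 is highest in heat-shocked Col-0 (17.7 to 21.2 TPM).

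In HS::AXR3-1 against heat-shocked Col-0, edgeR called 0 of 31 members higher (0.0252% of all tested genes were) and 0 lower (0%), and DESeq2 called 0 and 0. At an unadjusted p under 0.05 there were 3 higher (SAUR3, SAUR4 and SAUR5; 2.61% of all tested genes) and 1 lower (SAUR69; 1.62%). SAUR4 was at 71.7, 140 and 118 TPM in HS::AXR3-1, against 72.8, 57.3 and 56.1 TPM in heat-shocked Col-0 (log2 change 0.85, SE 0.24, adjusted p = 0.601). SAUR5 was at 78.8, 143 and 117 TPM, against 89.3, 62.6 and 68.8 TPM in heat-shocked Col-0 (log2 change 0.67, SE 0.25, adjusted p = 0.955). For both genes HS::AXR3-1 replicate 1, the library with the least AXR3 and heat shock transcript of its line, lay within the controls and the other 2 libraries above them in TPM. In CPM all 3 libraries lay above the controls for both genes. Without that library the log2 changes were 0.99 (adjusted p = 0.235) and 0.78 (adjusted p = 0.615). SAUR69 was at 14.3, 10.7 and 4.75 TPM in HS::AXR3-1, against 17.7, 18.0 and 21.2 TPM in heat-shocked Col-0 (log2 change -0.92, SE 0.40, adjusted p = 1), and at -1.34 without replicate 1 (adjusted p = 0.494). The root hair markers summed to 104, 84.2 and 71.0 TPM in HS::AXR3-1 and 148, 134 and 206 TPM in heat-shocked Col-0. Of these 3 markers 0 were called by edgeR or DESeq2, and 2 were lower at an unadjusted p under 0.05. Their part in the SAUR values was not tested.

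The effect in HS::AXR3-1 minus the effect in XVE>>AXR3-1 was tested as a difference between the lines. By edgeR 0 of 31 members were called in either direction (0.0151% of all tested genes were higher and 0.0101% lower), with DESeq2 at 0 lower and 1 higher. Without adjustment, p under 0.05 was reached by 1 higher member (SAUR78; 1.98% of all tested genes) and 1 lower member (SAUR4; 1.60%). SAUR78 changed by -0.12 (SE 0.18) in HS::AXR3-1 and by -1.33 (SE 0.18) in XVE>>AXR3-1, a difference of 1.21 (SE 0.25, adjusted p = 0.137) that DESeq2 called (1.20, adjusted p = 0.00429; 0.227% of all genes it tested were called higher) and that also passed without XVE>>AXR3-1 replicate 3 (1.52, adjusted p = 0.00705). SAUR4 had a difference of -0.71 (SE 0.34, adjusted p = 1) and SAUR52 of -1.09 (SE 0.52, adjusted p = 1). Promoter, inducer, induction time and line all differ between these experiments and cannot be told apart.

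Heat-shocked Col-0 against the mean of mock and estradiol Col-0 gave 1 of 31 members higher, SAUR69 (3.93% of all tested genes were), and 0 lower by edgeR (3.52%) and by DESeq2. Without adjustment, p under 0.05 was reached by 4 higher members (SAUR69, SAUR78, SAUR32 and SAUR5; 11.8% of all tested genes) and 4 lower members (SAUR68, SAUR72, SAUR59 and SAUR9; 11.2%). SAUR69 was at 17.7, 18.0 and 21.2 TPM in heat-shocked Col-0, against 2.67, 9.96 and 6.08 TPM with mock and 8.56, 7.29 and 7.82 TPM with estradiol (log2 change 1.44, SE 0.33, adjusted p = 0.0134), and just missed the threshold without heat-shocked replicate 3 (1.38, adjusted p = 0.0512). All 3 heat-shocked libraries lay above the 6 others. DESeq2 called 2 higher (5.36% of all genes it tested), adding SAUR78 (edgeR log2 change 0.48, SE 0.15, adjusted p = 0.0586; DESeq2 adjusted p = 0.0277). SAUR32 was at 83.0, 72.3 and 66.7 TPM after heat shock, against 13.1, 37.6 and 30.8 TPM with mock and 43.3, 54.3 and 62.0 TPM with estradiol (log2 change 0.92, SE 0.33, adjusted p = 0.102). SAUR5 had a log2 change of 0.55 (SE 0.21, adjusted p = 0.119), and 0.72 without estradiol Col-0 replicate 1 (adjusted p = 0.0414). Heat and experiment cannot be told apart here, since no unheated library belongs to the heat shock experiment.

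The single genes with the highest mean levels were SAUR78, SAUR32, SAUR72, SAUR30 and SAUR53. The remaining ones are given by their group means. SAUR30 had group means of 24.7 to 30.6 TPM, SAUR55 of 15.9 to 20.5 TPM, SAUR8 of 13.9 to 23.1 TPM and SAUR59 of 13.1 to 26.7 TPM, and none of these 4 was called by edgeR in any comparison. SAUR53 had group means of 15.0 TPM with IAA to 39.7 TPM in XVE>>AXR3-1. SAUR41, known for its part in auxin-related cell expansion, had group means of 5.01 to 10.3 TPM and SAUR36, known for its part in leaf senescence, of 3.92 to 8.99 TPM. SAUR76 and SAUR77, relatives of SAUR78, were lower, at 1.62 to 4.63 and 0.199 to 1.84 TPM. SAUR31 had group means of 10.1 to 22.1 TPM, SAUR51 of 10.5 to 19.0 TPM, SAUR45 of 5.36 to 11.2 TPM, SAUR70 of 3.53 to 4.45 TPM, SAUR9 of 1.13 to 4.83 TPM and SAUR40 of 0.109 to 1.92 TPM. SAUR12, SAUR42, SAUR10, SAUR54, SAUR25, SAUR71 and SAUR6 stayed under 1 TPM in every group.

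The known partners of SAUR proteins are given by their gene lists. The 9 PP2C.D phosphatase genes summed to 313, 337 and 329 TPM with IAA, 268, 330 and 289 TPM with PEO-IAA and 247, 336 and 263 TPM with mock, with 0 of 9 called by edgeR or DESeq2 in these 3 comparisons and 3 higher with IAA than with PEO-IAA at an unadjusted p under 0.05. In XVE>>AXR3-1 1 of 9 was lower (1.34% of all tested genes were), AT3G17090 (37.7, 42.3 and 41.3 TPM, against 60.4, 67.6 and 56.6 TPM in estradiol Col-0; log2 change -0.57, SE 0.12, adjusted p = 0.0104), and in HS::AXR3-1 0 of 9 by either tool, also at an unadjusted p under 0.05. In heat-shocked Col-0 against mock and estradiol Col-0 2 of 9 were lower by edgeR and by DESeq2 (3.52% of all tested genes were by edgeR), AT5G06750 (log2 change -0.51, SE 0.12, edgeR adjusted p = 0.0163) and AT4G33920 (-0.46, SE 0.14, edgeR adjusted p = 0.0464), and 2 others were higher at an unadjusted p under 0.05. Of the 11 AHA proton pump genes 9 passed the filter and 0 were called by edgeR in any comparison, with medians of log2 changes between -0.14 and 0.11, beside medians over all tested genes between -0.02 and 0.02. At most 1 AHA gene per comparison had an unadjusted p under 0.05, and DESeq2 called 1, lower in XVE>>AXR3-1. AHA sums were 404, 732 and 416 TPM with IAA, 449, 923 and 429 TPM with PEO-IAA and 338, 751 and 430 TPM with mock, highest in replicate 2 of each group.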

How the data were processed

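RNA of root tips was sequenced in 21 libraries (7 groups of 3, from the genotype and treatment labels). Per the submitters' processing notes, Salmon 1.3.0 and TAIR10 were used; strand setting and bias options are not stated there. The authors deposited estimated counts (Salmon's NumReads) and TPM per transcript, per the file headers. Both were summed per locus here, and the summed counts were rounded. Levels are deposited TPM. Changes were tested with edgeR 4.0.16 (R 4.3.3; quasi-likelihood, TMM, default low-count filter by group, 14 residual degrees of freedom, Benjamini-Hochberg). The procedure was tested on simulated data. DESeq2 1.42.0, other scaling, no filter, single-experiment fits, a replicate block and leaving out each library were alternatives.

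Named genes are the called members of a comparison, the 3 smallest p where fewer than 3 were called, every member of the 5 clusters and the 5 single genes with the highest mean TPM; the remaining members are given by level alone. The members and gene lists were chosen with earlier results of these data known. Nothing beyond the label "biological replicates" says how libraries were kept separate, so p-values measure the spread between these libraries, which may be technical.

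Whether replicate numbers pair libraries was decided from the data. Deviations of same-numbered libraries from their group means correlated across genes at 0.523 to 0.784 in the IAA, PEO-IAA and mock experiment (9 pairs) and at 0.488 to 0.698 in the estradiol experiment (3 pairs). No 2 libraries of a group agreed within sampling noise (chi-square per gene 20.9 to 129). Sequences and coordinates are from RefSeq's TAIR10.1. The files hold no coordinates; of 48071 transcripts matched by name, 99.59% had the same length there.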

Additional observations from a re-analysis of the deposited data

How the results depend on the processing

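None of the changes of named members that were tested turned sign under the alternatives tried. Among all tested members, 3 of 186 log2 changes turned sign under the replicate block, none of them called (SAUR69 with PEO-IAA against mock, SAUR9 in HS::AXR3-1 and SAUR77 for the difference between the lines, at most 0.13 in size without the block), and 0 of 217 did by DESeq2. The summed level of AT4G388xx, IAA against mock, turned from a log2 ratio of 0.10 with TPM to -0.13 with CPM. Scaling by median of ratios and dropping the low-count filter changed none of the counts of called members. DESeq2 gave 1 member lower with PEO-IAA than with mock where edgeR gave 0, 5 higher in XVE>>AXR3-1 where edgeR gave 3, 1 higher for the difference between the lines where edgeR gave 0, and 2 higher after heat shock where edgeR gave 1. Fitting an experiment alone gave 5 members higher with IAA than with PEO-IAA in place of 3, beside 104 of all genes. Of these 5, SAUR66, SAUR24 and SAUR26 passed the filter of the main fit only through the IAA libraries. Nothing is therefore read from this count. In XVE>>AXR3-1 the single-experiment fit gave 1 member lower (SAUR78) in place of 2, beside 195 of all genes. The replicate block gave 5 members higher with IAA than with PEO-IAA, 5 higher in XVE>>AXR3-1 and 1 higher for the difference between the lines (SAUR78, adjusted p = 0.0414). In the heat shock experiment same-numbered libraries correlated at only 0.087 to 0.447 (3 pairs), so they share a number alone there; the block left 0 members called in HS::AXR3-1, with SAUR4 at an adjusted p of 0.0516. The block moved no other count of called members by over 1.5 times.

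Leaving out each library in turn, the members higher with IAA than with PEO-IAA numbered 0 to 3 and the lower ones 1 to 2. Members lower in XVE>>AXR3-1 numbered 1 to 2, members higher for the difference between the lines 0 to 1, and members higher after heat shock 0 to 2. The cause of these shifts was not tested, beyond the smaller number of libraries in each fit. The counts stand without the share of all genes called in each fit, so they are a description.

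Summed levels of AT4G347xx-348xx moved with the unit, to log2 ratios of 0.32 (PEO-IAA against mock) and -0.81 (IAA against PEO-IAA) with CPM in place of 0.70 and -1.14 with TPM. Depth limits the AT5G180xx, AT1G294xx-295xx and AT3G038xx members, most of which had under 100 counts per group.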

Other observations

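Of the 25 further SAUR loci, 12 reached a mean of 1 TPM in at least 1 group and 11 passed the low-count filter. SAUR35 (AT4G12410) was at 12.5, 13.4 and 14.2 TPM with IAA and 0.0754, 1.01 and 1.54 TPM with PEO-IAA (edgeR log2 difference 3.94, SE 0.63, adjusted p = 0.00443), and at 1.10, 2.09 and 2.42 TPM with mock (IAA against mock 2.76, SE 0.59, adjusted p = 0.0712). SAUR58 (AT1G43040) was at 22.2, 17.2 and 12.3 TPM in XVE>>AXR3-1 and 4.00, 4.60 and 3.06 TPM in estradiol Col-0 (log2 change 2.05, SE 0.38, adjusted p = 0.00557). SAUR79 (AT2G35290) was at 0.782, 0.715 and 0.945 TPM in heat-shocked Col-0, against 6.68, 9.67 and 9.70 TPM with mock and 1.3, 0.944 and 1.21 TPM with estradiol (log2 change -2.02, SE 0.47, adjusted p = 0.0156).

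A pattern chosen after the values were seen concerns replicate 1 of the IAA, PEO-IAA and mock experiment. SAUR31 was at 2.83, 3.53 and 3.63 TPM in these 3 libraries and at 12.7 to 21.1 TPM in replicates 2 and 3 of the same groups. SAUR55 was at 6.05, 4.78 and 4.89 TPM in replicate 1 and at 14.7 to 30.3 TPM in the others. SAUR30 was at 14.8, 14.8 and 13.3 TPM in replicate 1 and at 28.7 to 37.5 TPM in the others.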
